A study of Mus musculus with 12 samples.

Results

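The genes described here are a list of interferon response genes, which cells switch on after interferon binds its receptor, measured in B cells of the mouse germinal centre. The germinal centre is the structure in which B cells divide, mutate their antigen receptors and compete for survival. Of 41 listed genes, 39 had a probe set carrying a single gene symbol, out of 19938 such genes on the array. Irf1 alone among them had more than 1 such probe set, and its brightest one was taken. Isg15 had only a probe set that it shares with another gene, and Ifi44 was not listed with one, so neither was analysed here. Of the 39, 27 genes passed the filter on dim values and were tested, as were 11206 genes in all.

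All cells were SwHEL B cells, whose receptor recognises hen egg lysozyme, marked with CD45.1 and transferred into C57BL/6J hosts that were given sheep red blood cells carrying the lysozyme mutant HEL3x. On day 10, donor cells that were CD45.1+, CD45.2-, IgG1+ and CD38 low were sorted from the spleen of female mice. The 4 groups, of 3 arrays each, are light zone cells (LZ, CD86 high and CXCR4 low) of high affinity (LZ_high) and low affinity (LZ_low), and dark zone cells (DZ, CXCR4 high and CD86 low) of high affinity (DZ_high) and low affinity (DZ_low). Unimmunized mice, interferon-treated cells and cells lacking an interferon receptor are not among the groups. How affinity was gated is not stated in the labels, nor is whether replicate arrays stem from different mice. The p-values therefore reflect only the variation among these arrays, part or all of which may be technical. Each group has 1 array in each of 3 matched sets, defined by a suffix that the sample descriptions share. The values are log2 RMA values (a probe set summary for microarrays), on which a difference of 1 is a doubling. In bulk RNA, fewer cells that express a gene and less of its RNA per cell cannot be told apart.

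Type I interferons signal through the receptor subunits Ifnar1 and Ifnar2 and the kinases Jak1 and Tyk2. The transcription factors Stat2 and Irf9 then act in a complex that binds a DNA element called the interferon-stimulated response element (ISRE). Interferon-gamma signals through Ifngr1 and Ifngr2 and acts on another element, the gamma-activated site (GAS). The induced genes encode sensors of viral RNA and DNA, proteins that block viral replication, enzymes that modify other proteins, feedback inhibitors such as Usp18, and the machinery that loads peptides on MHC class I. Germinal centre B cells receive cytokine signals from T follicular helper cells, mainly in the light zone.

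Both DNA elements can be looked up in the promoters of these genes. Promoter windows of 250 bases before to 50 bases after the start site, from RefSeq (mouse build GRCm38.p6), were found for 31 of the 39 genes. The ISRE core GAAANNGAAA, searched on both strands, was present in 11 of the 31 (35.5%), against 3.99% of the 27025 genes in that table and 3.44% of its 32851 windows. The GAS core TTCNNNGAA, which reads the same on both strands, was present in 9 (29.0%), against 9.55% of genes and 8.3% of windows. Oas1a, Bst2 and Eif2ak2 held both, and in Bst2 the cores of the 2 kinds overlap. A match is a run of letters and not a known binding site, and its absence says only that these letters are not in the window. Of the 22 tested genes with a window, 7 held the ISRE core. These 7 stretches of 60 bases are shown because they carry the element that defines the type I response in genes measured here. They are written 5′ to 3′ on the strand of the gene, with the ISRE core or its reverse complement in capitals, and cores that overlap run together.
Stat2 (chr10:128270251-128270310, plus strand): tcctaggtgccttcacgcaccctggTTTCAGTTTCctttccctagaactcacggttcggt
Ifit3 (chr19:34583365-34583424, plus strand): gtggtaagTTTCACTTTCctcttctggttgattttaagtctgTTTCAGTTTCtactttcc
Oas1a (chr5:120907508-120907567, minus strand): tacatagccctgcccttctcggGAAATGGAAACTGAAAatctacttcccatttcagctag
Ddx58 (chr4:40239789-40239848, minus strand): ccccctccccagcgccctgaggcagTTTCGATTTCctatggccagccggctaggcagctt
Bst2 (chr8:71537565-71537624, minus strand): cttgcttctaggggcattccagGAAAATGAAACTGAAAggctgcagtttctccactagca
Trim30a (chr7:104465195-104465254, minus strand): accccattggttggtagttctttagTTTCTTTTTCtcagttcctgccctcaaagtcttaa
Eif2ak2 (chr17:78882523-78882582, minus strand): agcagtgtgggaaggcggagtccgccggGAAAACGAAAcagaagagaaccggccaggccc

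**Figure D1:**
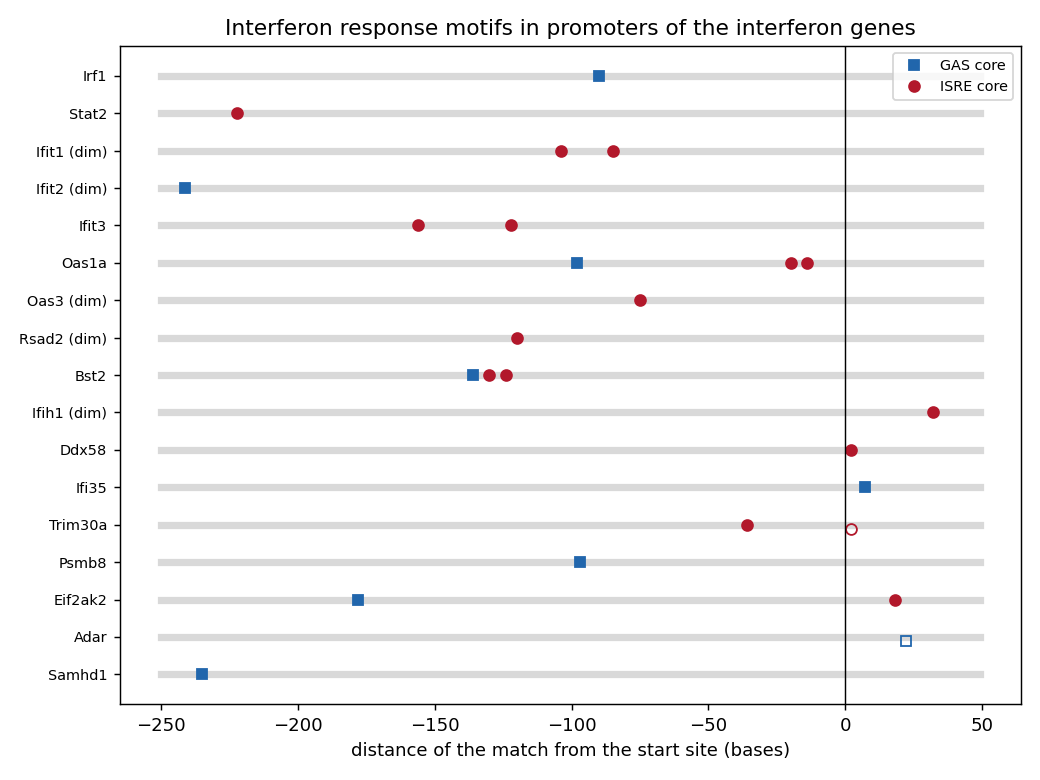
Positions of ISRE cores (red circles) and GAS cores (blue squares) in the promoter windows of the interferon genes that held at least 1, as distance in bases from the start site (vertical line); grey bars span the window, open symbols belong to an alternative start site, and genes that were too dim to test are marked. ISRE matches lie between positions -222 (Stat2) and 32 (Ifih1).

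Several classical virus-induced genes were dim in all 4 groups. The 12 genes that failed the filter were Ifit1, Ifit2, Rsad2, Mx1, Rtp4 and Cmpk2 among the antiviral effectors, Oasl2, Oas2, Oas3 and Ifih1 among the nucleic acid sensors, and Parp12 and Lgals3bp. Array medians over all probe sets lay between 5.57 and 5.72. Mx1, a GTPase known for its action against influenza virus, lay between 3.15 and 3.65 in the 12 arrays, and Ifit1, which binds viral RNA, between 4.37 and 4.68. Their order between groups was not tested. Some dim genes had a single brighter array. Oasl2, an oligoadenylate synthetase-like gene, reached 6.14 in LZ_low 3 against 4.98 to 5.47 in the other 11 arrays.

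Over the tested genes, the light zone did not stand higher or lower as a whole. The median difference, LZ minus DZ, was -0.01 for the 27 interferon genes and -0.00 for all tested genes, with 14 of 27 negative (51.9%) against 51.0% of all. A fit of the 4 group means with limma called 0 of the 27 (Benjamini-Hochberg adjusted p below 0.05 over all tested genes), where 0.419% of all genes were called. With the matched set as a replicate block it called 1, Slfn2, where 1.2% of all genes were called. At an unadjusted p below 0.05, 7 of the 27 passed without the block, 3 with positive and 4 with negative differences, against a background of 7.06%. No gene had LZ arrays that all lay on 1 side of the DZ arrays (background 0.991%). Within the matched sets, the median of the 27 was 0.11, 0.12 and -0.19.

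**Figure D2:**
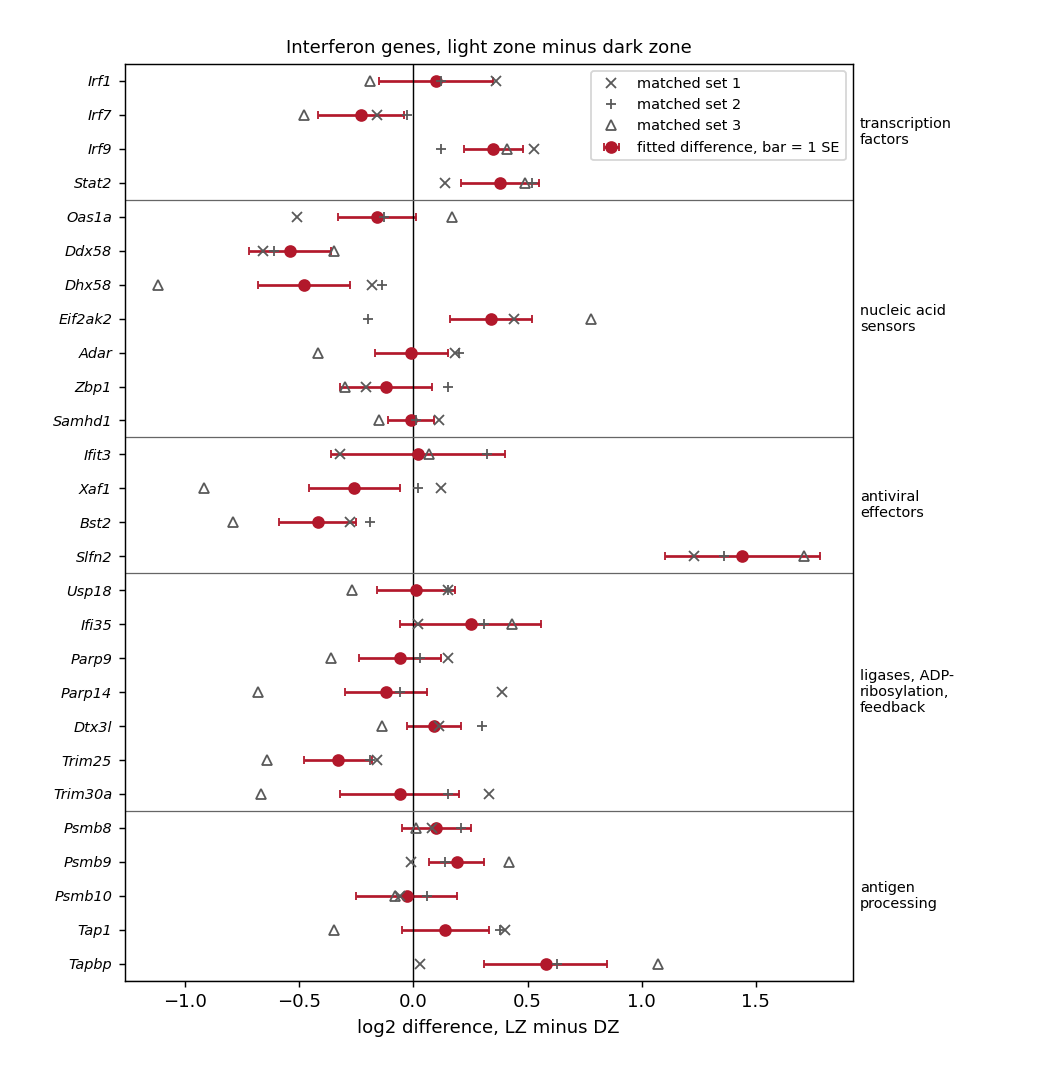
Log2 difference, LZ minus DZ, of the 27 tested interferon genes grouped by role: red points are the fitted differences with bars of 1 SE, and grey crosses, plus signs and triangles are the differences within matched sets 1, 2 and 3. Slfn2 lies at 1.44 and is above 1 in each set, while most other genes lie within 0.5 of 0.

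Slfn2 is a Schlafen family gene that keeps T cells quiescent in mice. Its value was 8.09, 7.89 and 8.94 in LZ_high arrays and 7.76, 7.57 and 9.18 in LZ_low arrays. In the dark zone it was 6.34, 6.13 and 7.62 in DZ_high arrays and 7.05, 6.60 and 7.07 in DZ_low arrays. Every LZ array was higher than the DZ array of its own set and affinity, though DZ_high 3 lay just above the lowest LZ array. The difference was 1.44 ± 0.34 (SE, n = 3 per group), or 2.71-fold, with an adjusted p of 0.135 from limma and 0.00598 with the replicate block. The blocked call remained when any single array was left out, with adjusted p-values up to 0.0268, and in the blocked fit without matched set 3 (0.00511). At high affinity the difference was 1.61 ± 0.48 and at low affinity 1.26 ± 0.48, neither called with or without the block. Its 300-base promoter window, shown because Slfn2 is the interferon gene with the largest zone difference among the 27, held neither core.
Slfn2 (chr11:83064862-83065161, plus strand): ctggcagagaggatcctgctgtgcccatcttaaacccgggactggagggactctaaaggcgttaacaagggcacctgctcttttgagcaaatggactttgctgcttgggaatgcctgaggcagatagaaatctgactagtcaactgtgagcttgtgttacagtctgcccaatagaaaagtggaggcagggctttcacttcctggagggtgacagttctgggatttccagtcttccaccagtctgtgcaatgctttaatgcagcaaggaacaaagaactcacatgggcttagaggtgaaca

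**Figure D3:**
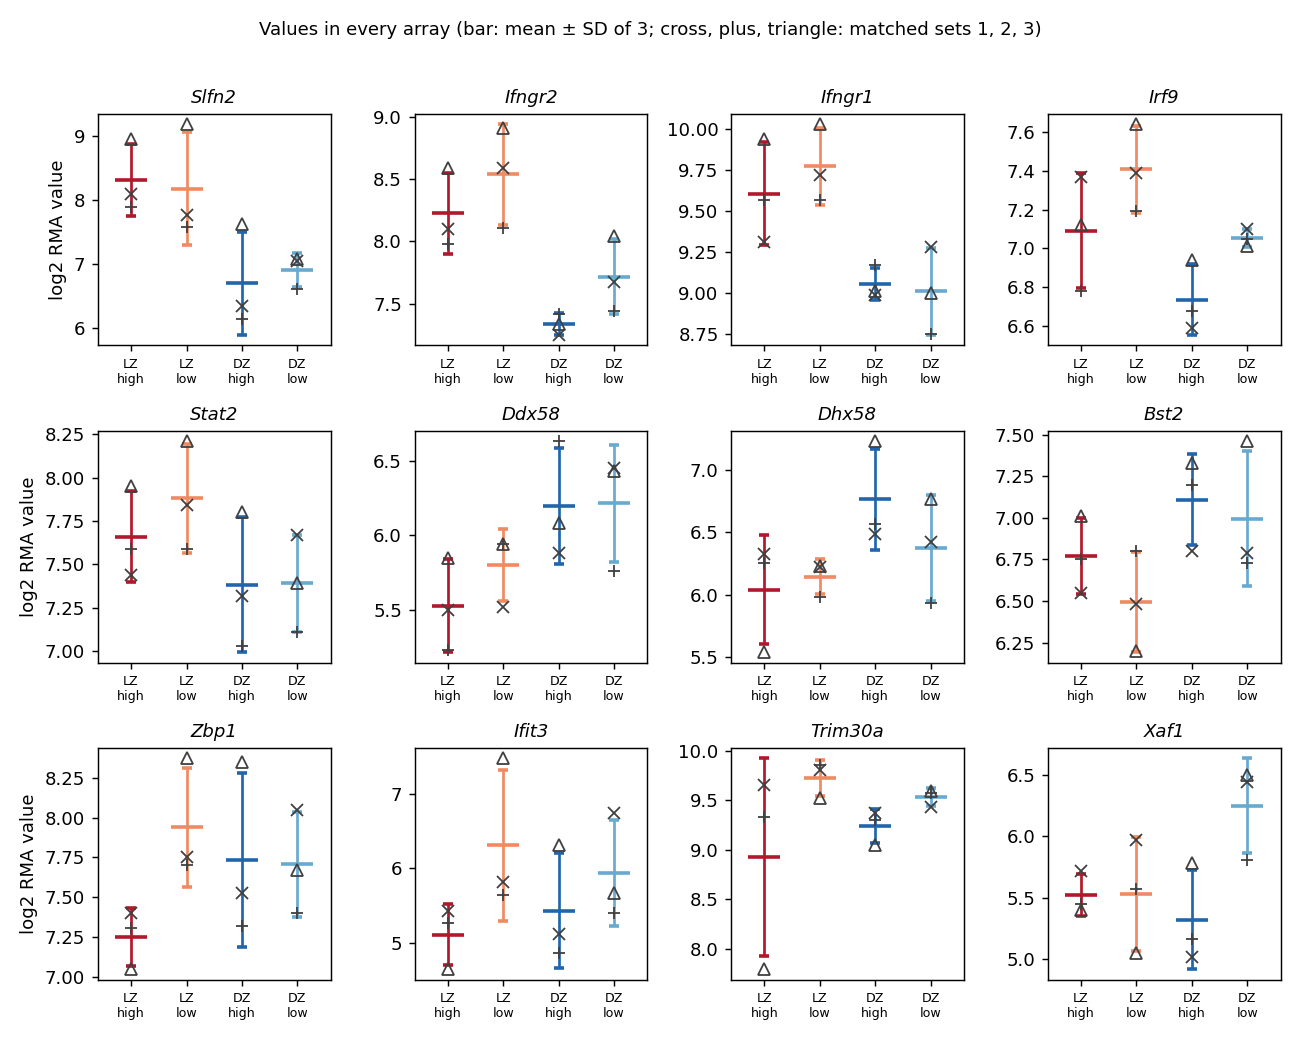
Log2 RMA values of 10 interferon genes and of the interferon-gamma receptor genes Ifngr1 and Ifngr2 in every array; groups run LZ_high, LZ_low, DZ_high and DZ_low, coloured bars give the mean ± SD of 3 arrays, and the cross, plus sign and triangle mark matched sets 1, 2 and 3. Slfn2, Ifngr1 and Ifngr2 lie higher in LZ than in DZ in each set, and matched set 3 often holds a group's extreme value.

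The transcription factors of the response differed little between the zones, and Irf9 and Stat2 of the ISRE-binding complex had positive differences. Irf9, the DNA-binding part of that complex, was 7.37, 6.78 and 7.12 in LZ_high arrays and 7.39, 7.19 and 7.64 in LZ_low arrays. In the dark zone, Irf9 was 6.59, 6.68 and 6.94 in DZ_high arrays and 7.10, 7.05 and 7.01 in DZ_low arrays. Stat2, its partner, was 7.44, 7.59 and 7.95 in LZ_high arrays, 7.84, 7.59 and 8.21 in LZ_low arrays, 7.32, 7.03 and 7.80 in DZ_high arrays and 7.67, 7.11 and 7.39 in DZ_low arrays. Both genes were higher in LZ in 6 of 6 matched pairs of arrays, as were Slfn2 and 4.54% of all genes, and the ranges of the zones overlapped. LZ minus DZ was 0.35 ± 0.13 for Irf9 (limma, adjusted p = 0.501) and 0.38 ± 0.17 for Stat2 (adjusted p = 0.698), so neither was called. Irf7, which amplifies interferon production, had a difference of -0.23 ± 0.19, and Irf1, which is induced by interferon-gamma, 0.10 ± 0.25. Without LZ_high 3, Irf7 was at -0.08. The feedback gene Usp18, which removes Isg15 from proteins and dampens the type I receptor, had 0.01 ± 0.17. The sign for Irf1 and for Usp18 depended on which array was left out.

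Several sensors of viral RNA had negative zone differences, none of them called. Ddx58, which encodes the RNA sensor RIG-I, was 5.50, 5.23 and 5.85 in LZ_high arrays and 5.52, 5.94 and 5.94 in LZ_low arrays. Ddx58 was 5.88, 6.63 and 6.08 in DZ_high arrays and 6.45, 5.76 and 6.43 in DZ_low arrays. The difference was -0.54 ± 0.18 (adjusted p = 0.419 from limma, 0.278 with the replicate block). Array weights, whose estimation stopped short of its tolerance here and in later uses, put it at -0.86, with an adjusted p of 0.00961. Dhx58, the related regulator LGP2, was 6.33, 6.25 and 5.54 in LZ_high arrays, 6.22, 5.98 and 6.23 in LZ_low arrays, 6.49, 6.57 and 7.23 in DZ_high arrays and 6.42, 5.93 and 6.77 in DZ_low arrays. Its difference of -0.48 ± 0.20 (adjusted p = 0.613) came mostly from matched set 3, where it was -1.12 against -0.18 and -0.14 in the other sets, and it was -0.16 without that set. Trim25, the ubiquitin ligase that activates RIG-I, was 8.19, 8.23 and 7.69 in LZ_high arrays, 8.49, 8.26 and 8.45 in LZ_low arrays, 8.26, 8.59 and 8.50 in DZ_high arrays and 8.74, 8.28 and 8.92 in DZ_low arrays. It was lower in LZ in 6 of 6 pairs, as were 3.74% of all genes, by small amounts in matched sets 1 and 2 (-0.16 and -0.19). The fitted difference was -0.33 ± 0.15 (adjusted p = 0.671) and -0.17 without matched set 3. Among the 7 tested sensors and effectors on RNA or DNA, 6 had a negative difference, with a median of -0.12. The exception was Eif2ak2, the kinase PKR that halts translation, at 0.34 ± 0.18. This count rested on high affinity, where 6 of 7 were negative with a median of -0.28, while at low affinity 3 of 7 were, with a median of 0.08. Adar and Samhd1, each at -0.01, were positive in matched sets 1 and 2 and negative in set 3.

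Bst2, which tethers budding virus to the cell surface, was 6.55, 6.75 and 7.01 in LZ_high arrays and 6.48, 6.80 and 6.20 in LZ_low arrays, against 6.80, 7.20 and 7.33 in DZ_high arrays and 6.79, 6.73 and 7.46 in DZ_low arrays. The difference was -0.42 ± 0.17 (limma, adjusted p = 0.607), and -0.24 without matched set 3. Plasma cells also express Bst2. The mean of 8 of 8 listed plasma cell markers lay between 7.23 and 7.66 in LZ arrays and between 7.38 and 7.90 in DZ arrays. Of the 6 that were tested, 5 had a negative difference, and Irf4, a factor that drives plasma cell fate, had the opposite sign (0.74 ± 0.21, limma, adjusted p = 0.25). Jchain, which encodes the joining chain of secreted antibody, had a difference of -0.97 ± 0.17 (adjusted p = 0.0427), while Prdm1, the regulator that defines plasma cells, was too dim to test and lay between 4.16 and 5.04. The part of these cells in the Bst2 difference was not tested.

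The antigen-processing genes had small zone differences apart from Tapbp, and none was called. Psmb9, a subunit of the immunoproteasome, was 12.28, 12.28 and 12.59 in LZ_high arrays, 12.39, 12.27 and 12.60 in LZ_low arrays, 12.30, 12.24 and 12.41 in DZ_high arrays and 12.40, 12.03 and 11.93 in DZ_low arrays. LZ minus DZ was 0.19 ± 0.12 for Psmb9, 0.10 ± 0.15 for the subunit Psmb8, -0.03 ± 0.22 for the subunit Psmb10 and 0.14 ± 0.19 for the peptide transporter Tap1. The windows of Psmb9 and Tap1 share 275 bases on opposite strands of chromosome 17. Tapbp, the peptide-loading protein tapasin, had 0.58 ± 0.27 (limma, adjusted p = 0.722, 0.224 with the replicate block), which was 0.03, 0.63 and 1.07 within matched sets 1, 2 and 3.

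Zone was also compared within each affinity. At high affinity, LZ minus DZ had a median of -0.09 over the 27 genes, and at low affinity 0.12. At each affinity 0 of the 27 were called by limma, where 0.0357% of all genes were, and 0 with the replicate block, where 0.0803% at high and 0.223% at low affinity were. Unadjusted p-values below 0.05 were reached by 3 of 27 at high affinity (Slfn2, Dhx58 and Ddx58; background 4.53%) and by 2 at low affinity (Slfn2 and Xaf1; background 4.69%).

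High minus low affinity asks whether cells that bind the antigen better express these genes differently. In the light zone, 22 of the 27 interferon genes had a negative difference (81.5%), against 50.3% of all tested genes, and the median was -0.27 against -0.00. No single gene was called by limma with or without the replicate block, as for all genes (0%), and 2 reached an unadjusted p below 0.05, Zbp1 and Ifit3, where 4.16% of all genes did. In every matched set 13 of 27 were lower at high affinity (48.1%), against a background of 16.7%, and 1, Eif2ak2, was higher, against 15.1%. The sets differed in size, with medians of -0.14, -0.03 and -0.53 in sets 1, 2 and 3. Without LZ_high 3 the median was -0.16, and without matched set 3 it was -0.10. These genes share arrays, and interferon is known to induce them together, so their counts are not independent observations.

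**Figure D4:**
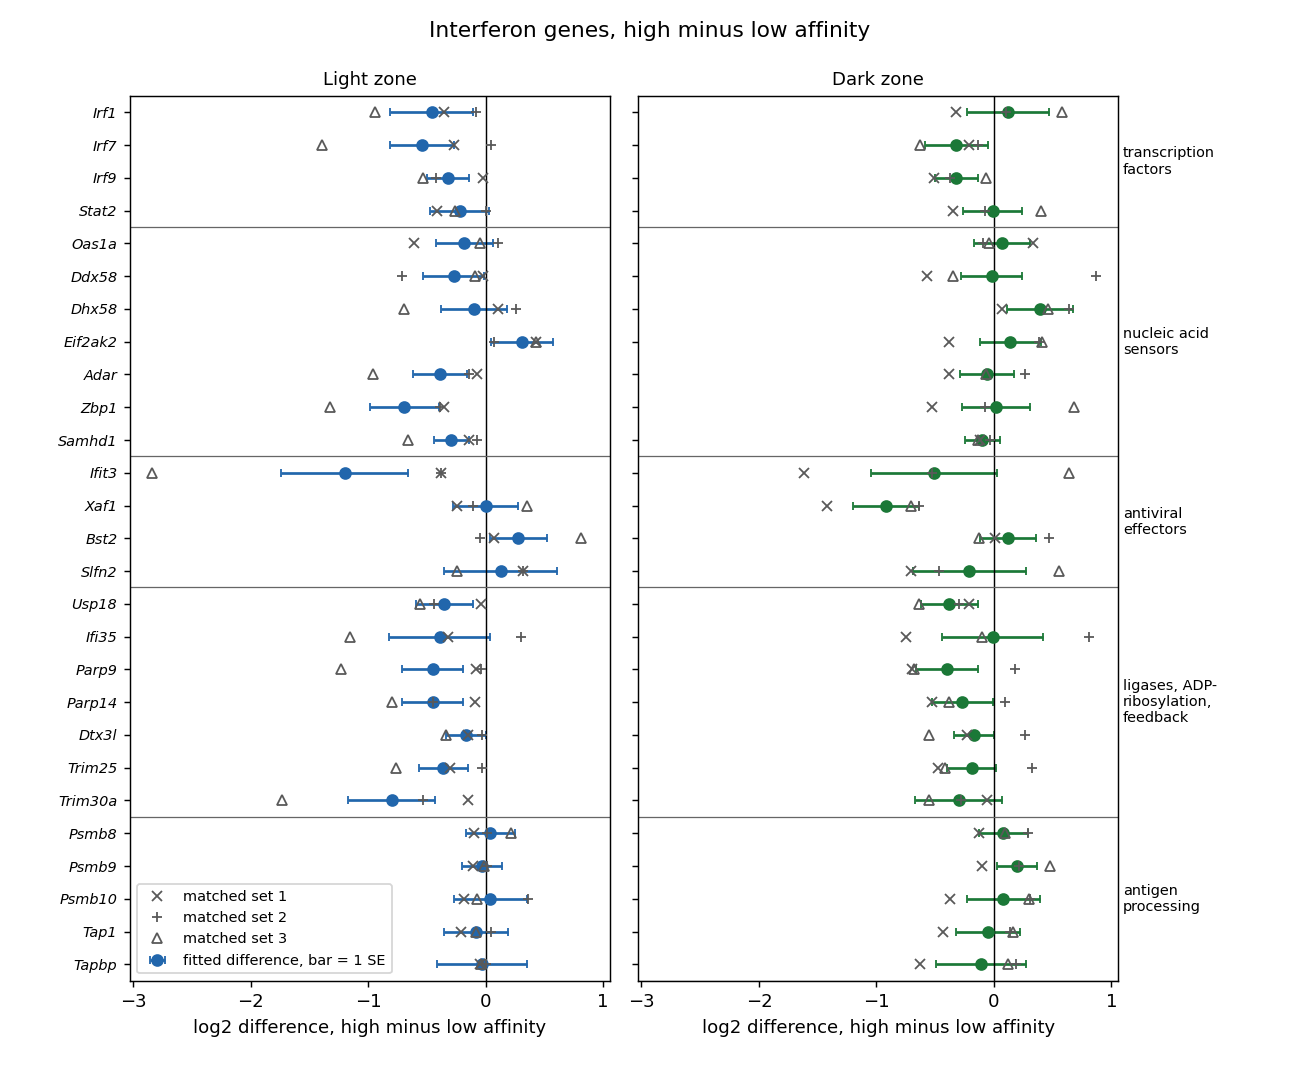
Log2 difference, high minus low affinity, of the 27 tested interferon genes in the light zone (left, blue) and dark zone (right, green): points are fitted differences with bars of 1 SE, and grey symbols are matched sets 1 to 3. In the light zone 22 of 27 points lie below 0 and matched set 3 (triangles) holds most of the lowest values, while in the dark zone 18 of 27 lie below 0.

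The 4 transcription factors all had negative affinity differences in the light zone. Irf7 was 6.51, 6.35 and 5.55 in LZ_high arrays, against 6.78, 6.30 and 6.94 in LZ_low arrays. That gives -0.54 ± 0.27 (limma, adjusted p = 0.999), which was -0.27, 0.05 and -1.39 within the sets and -0.24 without LZ_high 3. Irf1 was 6.86, 6.48 and 5.50 in LZ_high arrays, against 7.22, 6.55 and 6.43 in LZ_low arrays, a difference of -0.46 ± 0.35 that was -0.07 without LZ_high 3. Irf9 had -0.32 ± 0.18 and Stat2 -0.22 ± 0.25, which were -0.20 and -0.06 without LZ_low 3, while Irf9 was -0.16 without LZ_high 2. In LZ_high 3, Irf7 and Irf1 were each lower than in any other array, while Stat2 was not.

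Zbp1, a sensor of nucleic acids in the Z form that can trigger cell death, was 7.40, 7.31 and 7.05 in LZ_high arrays and 7.75, 7.70 and 8.37 in LZ_low arrays. This gave a difference of -0.69 ± 0.29 (limma, adjusted p = 0.999), or -0.37 without matched set 3. Ifit3, a member of the family that binds viral RNA, was 5.42, 5.26 and 4.64 in LZ_high arrays, against 5.81, 5.64 and 7.48 in LZ_low arrays. Its difference of -1.20 ± 0.54 (adjusted p = 0.999) held -2.84 in matched set 3 and -0.38 in each of the other sets. Every LZ_high value of Ifit3 lay below its own array's median. Without LZ_low 3 the difference was -0.62. LZ_low 3 also had the highest Ifi35 value of all arrays, 8.66, and the highest Oasl2 and Rtp4 values. That array carried more signal of some T and NK cell genes but not of others. The mean over 11 of 12 listed markers lay between 4.66 and 5.13 in LZ_high arrays, 4.70 and 6.10 in LZ_low arrays, 5.04 and 5.52 in DZ_high arrays and 4.96 and 5.71 in DZ_low arrays, with 6.10 in LZ_low 3. Cd3g, part of the T cell receptor complex, was 7.60 there and 6.67 in DZ_low 3, against 3.76 to 4.65 elsewhere. Gzma, a granzyme of cytotoxic T and NK cells, was 8.11 in LZ_low 3, 8.06 in DZ_low 3 and 5.12 to 7.39 in the other 10 arrays. Nkg7, another cytotoxic cell gene, was 6.33 in LZ_low 3 and highest in DZ_high 3, at 8.37, while the NK cell genes Ncr1 and Klrb1c were too dim to test. Cd3d (7.32) and Thy1 (8.05) were highest in LZ_low 3, while Cd3e, Cd4, Cd8a, Cd28, Ncr1 and Klrb1c were not. Cd4 was 5.12 and Cd8a 5.78 in LZ_low 3, against 5.30 and 5.91 in LZ_low 2. The mean of 11 of 13 macrophage markers was also highest in LZ_low 3, at 5.63 against 4.97 to 5.38 elsewhere. Its members were mixed: Lyz2 was 8.24 in LZ_low 3 and 3.84 to 7.09 elsewhere. C1qb, C1qc, Marco, Cd14, Fcgr1 and Vcam1 were lower in LZ_low 3 than in LZ_high 3, while Cd68, Adgre1, Csf1r and C1qa were higher. Granulocyte markers varied more: the mean of 9 of 9 was 5.22, 6.65 and 5.48 in LZ_high arrays, 5.34, 6.52 and 6.69 in LZ_low arrays, 5.30, 6.78 and 6.32 in DZ_high arrays and 5.37, 6.28 and 5.53 in DZ_low arrays. In matched set 3, S100a9, an abundant granulocyte protein, was 6.45 in LZ_high 3 against 9.82 in LZ_low 3. The part of these cell types in the interferon gene values, and in the light zone affinity difference of matched set 3, was not tested. No marker was at 0, which RMA values do not reach.

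Among the ligases, ADP-ribosyltransferases and feedback genes, all 7 tested had a negative affinity difference in the light zone, with a median of -0.39, and all 7 in the dark zone, with a median of -0.27, and none was called in either. The sets were less uniform. In the light zone the 7 lay between -0.32 and -0.04 in set 1, -0.53 and 0.30 in set 2 and -1.73 and -0.34 in set 3. In dark zone set 2, 5 of the 7 were positive, from 0.09 for Parp14 to 0.81 for Ifi35. Trim30a, which restrains Toll-like receptor signalling in mice, was 9.66, 9.33 and 7.79 in LZ_high arrays and 9.81, 9.86 and 9.52 in LZ_low arrays. The difference was -0.80 ± 0.37 (limma, adjusted p = 0.999), and -0.24 without LZ_high 3, the lowest array. Trim25 had -0.36 ± 0.21, Usp18 -0.35 ± 0.24 and Parp9, the partner of the ubiquitin ligase Dtx3l, -0.45 ± 0.26. Without LZ_high 3, Usp18 was at -0.08 and Trim25 at -0.19. Usp18 was 5.73, 5.44 and 4.79 in LZ_high arrays and 5.77, 5.88 and 5.36 in LZ_low arrays. It lay below the array's own median in LZ_high 2 and 3 and in LZ_low 3, so its difference includes dim values. Parp9 was 6.82 in LZ_high 3, against 7.81 and 7.79 in LZ_high 1 and 2. Samhd1, which degrades the building blocks of DNA, was 11.74, 11.69 and 11.37 in LZ_high arrays and 11.88, 11.75 and 12.03 in LZ_low arrays, with a difference of -0.29 ± 0.15, or -0.17 without LZ_high 3. The RNA-editing enzyme Adar was 7.89, 7.73 and 6.95 in LZ_high arrays, against 7.96, 7.87 and 7.91 in LZ_low arrays. Antigen processing had no such direction: its 5 genes had light zone affinity differences between -0.08 and 0.04.

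**Figure D5:**
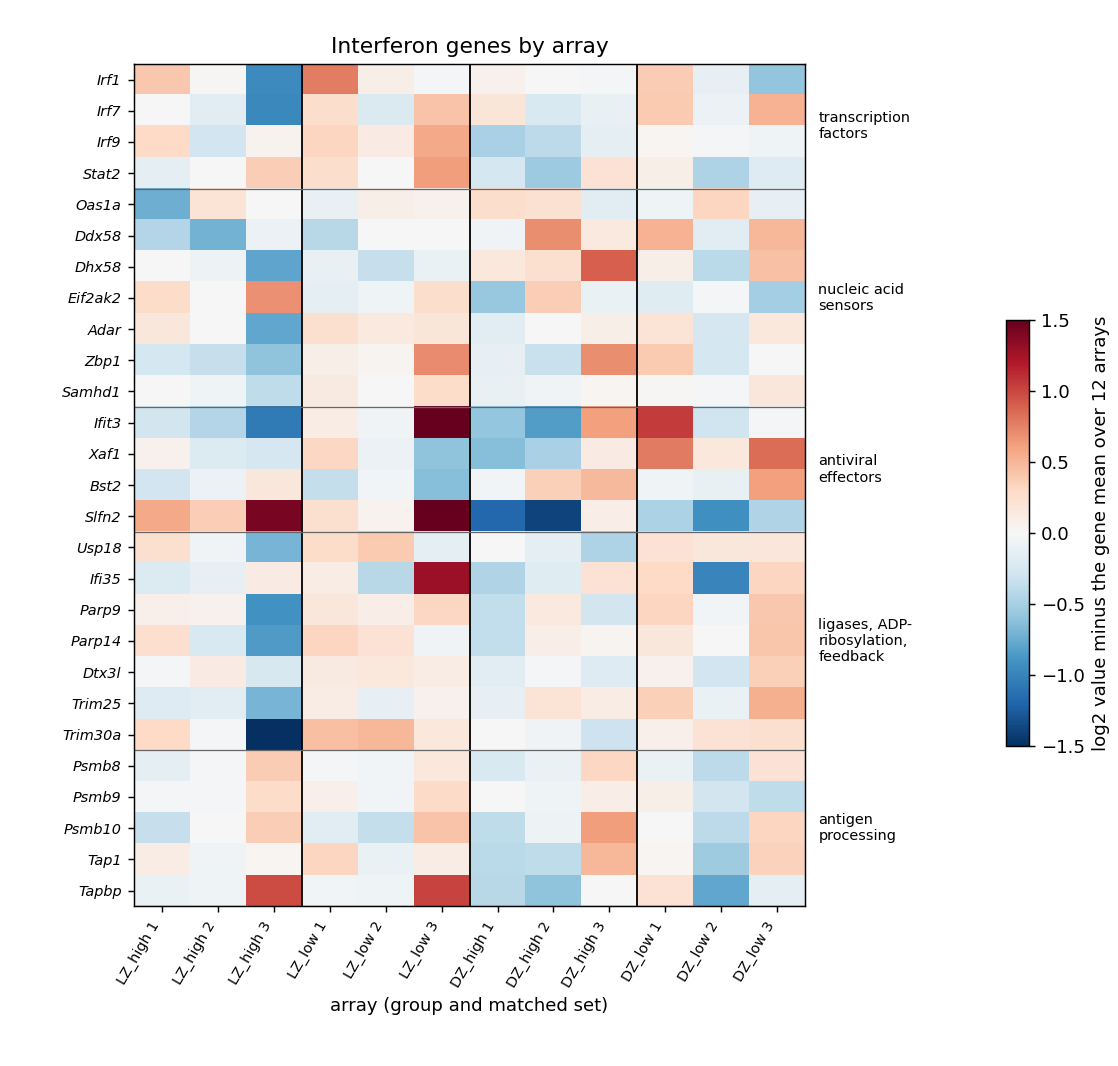
Deviation of each log2 value from the gene's mean over the 12 arrays (colour, red above and blue below, limited to 1.5 either way) for the 27 tested interferon genes, grouped by role, with arrays ordered LZ_high, LZ_low, DZ_high and DZ_low. LZ_high 3 is blue for Irf1, Irf7, Adar, Parp9, Parp14 and Trim30a but red for Slfn2 and Tapbp, and LZ_low 3 is red for Ifit3, Ifi35, Slfn2 and Tapbp.

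In the dark zone the affinity difference had a median of -0.06 over the 27 genes, with 18 negative, and 0 were called with or without the block. That median depended on single arrays: it was -0.27 without DZ_low 2, -0.20 without DZ_high 3 and 0.01 without DZ_low 1. Xaf1 alone reached an unadjusted p below 0.05, where 2.2% of all genes did. In every set 6 of 27 were lower at high affinity (22.2%), against a background of 12.7%, and 1, Dhx58, was higher, against 9.31%. Irf9, Usp18, Trim30a and Samhd1 were lower in every set of both zones. The share of all genes that were so was not counted, so this has no background. Some of these steps were very small, such as -0.02 for Irf9 and -0.04 for Usp18 in light zone set 1. In dark zone set 3, Irf9 was at -0.07. The dark zone set medians were -0.38, 0.14 and -0.07. Xaf1, a partner of an inhibitor of apoptosis, was 5.02, 5.17 and 5.78 in DZ_high arrays and 6.44, 5.81 and 6.50 in DZ_low arrays. The difference was -0.92 ± 0.28 (limma, adjusted p = 1.0), and its light zone counterpart was -0.00 ± 0.28. Xaf1 was 5.72, 5.45 and 5.40 in LZ_high arrays and 5.97, 5.57 and 5.05 in LZ_low arrays. It lay below the array's own median in LZ_high 2 and 3, LZ_low 2 and 3 and DZ_high 1 and 2. Both of its differences therefore include dim values. Other affinity differences in the dark zone were -0.32 ± 0.18 for Irf9, -0.38 ± 0.24 for Usp18, -0.40 ± 0.26 for Parp9, 0.39 ± 0.28 for Dhx58 and 0.20 ± 0.17 for Psmb9. Usp18 was 5.50, 5.36 and 5.03 in DZ_high arrays and 5.71, 5.66 and 5.66 in DZ_low arrays. It lay below the array's own median in every DZ_high array and in DZ_low 2. Usp18 passed the filter mostly through low-affinity arrays: LZ_low 1 and 2 and DZ_low 1 and 3, besides LZ_high 1.

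Averaged over both zones, high minus low affinity had a median of -0.17, with 21 of 27 negative, 0 called (0% of all genes) and 5 with an unadjusted p below 0.05, all negative, against 5.25% of all genes. The 5 were Irf9 (-0.32 ± 0.13), Xaf1 (-0.46 ± 0.20), Parp9 (-0.43 ± 0.18), Ifit3 (-0.85 ± 0.38) and Irf7 (-0.43 ± 0.19). Whether the affinity difference itself differs between the zones was tested as an interaction. It called 0 of the 27 and 0% of all genes, the median was -0.17 with 20 negative, and without LZ_high 3 the median was -0.04. Xaf1 alone had an unadjusted p below 0.05 (0.92 ± 0.40, limma, adjusted p = 1.0; background 1.58%). Zbp1 had an interaction of -0.71 ± 0.40, Irf1 -0.58 ± 0.49, Dhx58 -0.49 ± 0.40, Adar -0.33 ± 0.33 and Psmb9 -0.23 ± 0.24. Without matched set 3 these were -0.07 for Zbp1, -0.11 for Irf1, -0.17 for Dhx58, -0.05 for Adar and -0.10 for Psmb9. Leaving out LZ_high 3 alone gave -0.19 for Irf1, -0.24 for Dhx58 and -0.04 for Adar. So no gene was shown to have an affinity difference that differs between the zones.

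Per array, the median deviation of the 27 genes from their own means was -0.01, -0.05 and -0.23 in LZ_high arrays, 0.13, 0.00 and 0.18 in LZ_low arrays, -0.17, -0.07 and 0.10 in DZ_high arrays and 0.09, -0.18 and 0.22 in DZ_low arrays. Over all tested genes it lay between -0.06 and 0.03. The 4 groups overlapped. Marker levels followed the labels, in lists that include the sort genes Cd86 and Cxcr4. The mean of 8 light zone markers lay between 9.10 and 9.62 in LZ arrays and 7.80 and 8.71 in DZ arrays, and that of 6 dark zone markers between 8.98 and 9.40 in LZ arrays and 9.81 and 10.32 in DZ arrays. The mean of 9 germinal centre B cell markers lay between 10.22 and 10.48 in all arrays. For the plasmacytoid dendritic cell, a main source of type I interferon, the mean of 7 of 9 markers lay between 6.27 and 6.55 in all arrays. Its markers Siglech and Ccr9 were too dim to test, while Tcf4 (8.01 to 8.99) and Spib (8.82 to 10.15), which B cells express too, were bright.

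The rest of the pathway was read from lists of related genes. Among interferon receptors and signal transducers, the receptor for interferon-gamma had the largest zone differences. Ifngr2 was 8.10, 7.98 and 8.59 in LZ_high arrays and 8.59, 8.11 and 8.91 in LZ_low arrays, against 7.25, 7.42 and 7.34 in DZ_high arrays and 7.67, 7.44 and 8.04 in DZ_low arrays. It was higher in LZ in each set, by 0.85 ± 0.17 (adjusted p = 0.064 from limma, 0.0124 with the replicate block, 0.0387 after quantile normalization). The blocked call was lost without LZ_low 1 (0.0636) and without matched set 3 (0.0534). Ifngr1 was 9.31, 9.57 and 9.94 in LZ_high arrays and 9.72, 9.57 and 10.03 in LZ_low arrays, against 8.99, 9.17 and 9.01 in DZ_high arrays and 8.75 to 9.28 in DZ_low arrays. Its zones did not overlap (background 0.991%), and the difference was 0.66 ± 0.14 (adjusted p = 0.0994 from limma, 0.0566 with the block). It was called with a random replicate block (0.0427) and with array weights (0.019). In the type I receptor, Ifnar1 had a difference of 0.16 ± 0.14 and Ifnar2 -0.46 ± 0.47. Ifnar2 was 4.69 in LZ_high 3 and between 7.15 and 8.49 in the other 11 arrays, and that array gave the negative sign: without it the difference was 0.02.

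Of 14 listed receptor and transducer genes, 12 were tested, 11 had a positive zone difference with a median of 0.20, and 0 were called (1, Ifngr2, with the block). Ptpn6, the phosphatase SHP-1 that restrains receptor signalling, had 0.43 ± 0.14 (limma, adjusted p = 0.34). Socs1, a feedback inhibitor of the Jak kinases, had 0.08 ± 0.14. High minus low affinity in the light zone was -0.36 ± 0.20 for Ifnar1, -1.27 ± 0.67 for Ifnar2 (-0.31 without LZ_high 3), -0.31 ± 0.24 for Ifngr2, -0.17 ± 0.20 for Ifngr1, -0.28 ± 0.15 for Jak1, 0.34 ± 0.16 for Il10rb and 0.16 ± 0.19 for Socs1. Adjusted p-values for all of these were 0.999. Without LZ_low 3, Ifnar1 was -0.21, Ifngr2 -0.13 and Ifngr1 -0.04.

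The interferon genes themselves had small zone differences. Of 17 listed, 14 had a probe set and 6 were tested, with zone differences between -0.15 and 0.14 and none called, while Ifnb1 and Ifng were too dim. The probe sets of Ifnl2 and Ifna5 lay above the array medians, with means of 7.47 and 7.34 over the 12 arrays. Ifna2 had 0.14 ± 0.18, Ifnz -0.13 ± 0.18 and Ifnl2 -0.15 ± 0.21. Light zone affinity differences were -0.25 ± 0.30 for Ifnl2, 0.12 ± 0.19 for Ifna9 and 0.06 ± 0.21 for Ifna14. Probe sets of the interferon-alpha genes may cross-hybridise, since these genes are close copies.

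Of 52 other listed genes induced by type I interferon, 31 were tested. They were read from the same arrays and so are not separate support. Their zone median was 0.04 with 21 positive, where 13 of the 27 were. Their light zone affinity median was -0.29 with 26 of 31 negative, against 50.3% of all tested genes. None was called in either. The list medians without LZ_high 3 or matched set 3 were not computed. Ifi203 (4.41), Pnpt1 (6.15) and Nmi (8.81) were lowest in LZ_high 3, while Trim21 (9.16) was highest there. The affinity differences with the smallest p were -0.71 ± 0.20 for the oligoadenylate synthetase gene Oas1b, -0.71 ± 0.27 for Trim14 and -0.35 ± 0.14 for the nuclear body gene Sp100 (limma, adjusted p = 0.999 each). Without LZ_high 3 they were -0.57, -0.39 and -0.28 in the same order. Oas1b was 6.35, 6.31 and 5.91 in LZ_high arrays and 6.86, 6.88 and 6.97 in LZ_low arrays. In the zone comparison, the activation marker Cd69 had 0.96 ± 0.23 (adjusted p = 0.132), Phf11a 0.76 ± 0.24 (called with array weights, adjusted p = 0.0207) and Ifi27l2a -0.87 ± 0.27. Phf11a lay below the array's own median in every DZ_high array and in DZ_low 2, so its zone difference includes dim values. Among 20 listed interferon-gamma targets, 5 were tested and all had negative light zone affinity differences, none called. Ciita, the regulator of MHC class II, was 8.62, 8.15 and 8.03 in LZ_high arrays and 9.13, 8.72 and 8.97 in LZ_low arrays, a difference of -0.68 ± 0.23 (limma, adjusted p = 0.999). With array weights, whose estimation stopped short of its tolerance, it was -0.76 and called (adjusted p = 0.0408). How many of all genes array weights call in this comparison was not counted. Gbp9, a guanylate-binding protein, had -0.48 ± 0.41, with the opposite sign (0.11) without LZ_high 3, and Cd274, the checkpoint ligand PD-L1, had -0.16 ± 0.17. The zone differences of that list were 0.40 ± 0.16 for Ciita, 0.61 ± 0.29 for Gbp9 and -0.38 ± 0.18 for Gbp3. Gbp9 was called with array weights (adjusted p = 0.0364) and without matched set 3 (0.0371).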

How the data were processed

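Sorted germinal centre B cells were measured on 12 1-colour arrays, 3 in each of 4 groups. The deposited values are log2 RMA values per probe set, 1 column per sample. RMA is the only tool the submitters' processing notes name. Their span of 1.99 to 13.74 points to base 2. Detection calls and scanner files were not used here, and the number of arrays limits the precision.

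Of 28853 probe sets, 21789 had 1 symbol, giving 19938 genes. A gene was tested when at least 3 arrays reached their own array's median (percentile 50), which left 11206 genes. In R 4.3.3, limma 3.58.1 fitted the group means by lmFit with eBayes moderation, tested on simulated data beforehand. Tests are two-sided, and a gene was called at a Benjamini-Hochberg adjusted p below 0.05. Every pairing of arrays is by matched set, taken from the suffix in the labels. With group means removed, the correlation was above 0.1 for 17 of 18 same-set pairs of arrays, with a median of 0.406 and a lowest value of -0.071. For 11 of 12 arrays the best correlation was with their own set. The fit with the set as a replicate block is given where it changes a call.

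Genes named by rule were Irf7, Irf9, Stat2, Irf1 and Usp18, any called gene, and up to 6 with the smallest p per contrast. Of related lists, these were the receptor genes, Socs1 and up to 3 per list. Array values are printed for only some of these, and for Irf7 and Irf1 only in the light zone. A few dim or outlying genes (Mx1, Ifit1, Oasl2, Ifi35, Rtp4, Eif2ak2, the other antigen-processing genes) were named after their values were seen. Members and lists were chosen with earlier results of these data known. Promoter windows come from RefSeq and were searched with Python 3.11.15.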

Additional observations from a re-analysis of the deposited data

How the results depend on the processing

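The count of interferon genes called for LZ minus DZ, 0, was 1 with the replicate block, 1 with a random replicate block, 2 with array weights (whose estimation stopped short of its tolerance) and 1 without matched set 3. At high affinity it was 2 with array weights and 1 without matched set 3. Shares of all genes called were counted only without a block and with the replicate block, at 0.419% and 1.2% for LZ minus DZ. Counts under the other alternatives therefore stand without a background and cannot be set against the general rate. Counts were 0 in all fits without 1 array, and in the other contrasts 0 under every alternative run. In blocked fits without 1 array, chosen after seeing the data, the count was 1 to 2 (Slfn2, and Tapbp without DZ_low 1). The replicate block changed no other member's call. Medians moved by less than the SD of the 3 set medians. For the light zone affinity difference, with set medians of -0.14, -0.03 and -0.53, matched set 3 makes that a wide bound. Its median lay between -0.297 and -0.104, the latter without matched set 3, while the median of LZ minus DZ lay between -0.051 and 0.133. For single genes, 1862 of 1903 values kept sign and side of the threshold, 16 newly passed, 2 were lost and 23, in 10 results, changed sign. Array weights put LZ minus DZ at 0.04 for Ifnar2 and -0.05 for Socs1, and the light zone affinity difference of Socs1 at -0.07. Without matched set 3, LZ minus DZ was 0.22 for Ifnar2 and 0.02 for Irf2, and the affinity difference -0.05 for Socs1 and -0.09 for Ifna14. In fits without 1 array, LZ minus DZ ranged over -0.05 to 0.29 for Irf1, -0.09 to 0.14 for Usp18, -0.75 to 0.02 for Ifnar2, -0.02 to 0.15 for Socs1, -0.29 to 0.01 for Ifnl2, and the light zone affinity difference over -0.04 to 0.29 for Socs1, -0.01 to 0.20 for Ifna9, -0.06 to 0.20 for Ifna14, -0.85 to 0.11 for Gbp9. The causes were not tested. Values near the array median limit what dim genes can show.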

Other observations

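The steps before interferon and the other IRF factors were also read. A list of sensors, adaptors, kinases and factors upstream of interferon held 19 symbols, with Cgas and Sting1 also under their older symbols. Of these, 12 were tested and none was called. Their zone median was 0.14. In the same arrays 11 of 12 had a negative light zone affinity difference, against 50.3% of all tested genes, with a median of -0.25. Myd88, the adaptor of Toll-like receptors, was 8.18, 7.97 and 7.33 in LZ_high arrays, against 8.31, 7.98 and 9.11 in LZ_low arrays. That difference was -0.64 ± 0.33, and -0.07 without matched set 3. Irf5 had -0.51 ± 0.25 (-0.28 without LZ_low 3) and Irf3 -0.28 ± 0.18. LZ minus DZ was 0.49 ± 0.29 for Unc93b1, which delivers Toll-like receptors to endosomes, and 0.28 ± 0.18 for Irf5. For the kinase gene Ikbke it was 0.40 ± 0.13 (called with array weights, adjusted p = 0.0172, with no share of all genes counted). Ikbke lay below the array's own median in LZ_high 3, every DZ_high array and DZ_low 1 and 3. It therefore passed the filter mostly through LZ arrays, and its zone difference includes dim values. Of the other IRF genes, Irf4, which drives plasma cell fate, had 0.74 ± 0.21 for LZ minus DZ (limma, adjusted p = 0.25) and 0.56 ± 0.29 for affinity in the light zone. Irf8 had a zone difference of 0.30 ± 0.25. Irf2, a repressor of interferon genes, had -0.12 ± 0.15 by zone. By affinity in the light zone Irf2 had -0.44 ± 0.21, or -0.22 without LZ_high 3. Irf2bpl, listed with the IRF genes but not itself one, had 0.25 ± 0.17 by affinity there.

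The constitutive proteasome subunits that Psmb8, Psmb9 and Psmb10 replace had positive affinity differences in the light zone, with none called. Psmb8, Psmb9 and Psmb10 themselves had 0.04 ± 0.21, -0.03 ± 0.17 and 0.04 ± 0.31 there. LZ_high minus LZ_low was 0.31 ± 0.25 for Psmb5, 0.20 ± 0.19 for Psmb6 and 0.30 ± 0.15 for Psmb7. LZ minus DZ was -0.24 ± 0.18, -0.14 ± 0.13 and -0.26 ± 0.11 in the same order. The zone median of 10 tested MHC class I genes was 0.17, with 9 positive and none called. Among them the peptide transporter Tap2 had 0.28 ± 0.14, the proteasome activator Psme2 0.32 ± 0.16 and the chaperone Pdia3 0.17 ± 0.10. Their light zone affinity differences were -0.30 ± 0.20 for Tap2, 0.27 ± 0.23 for Psme2 and -0.15 ± 0.18 for B2m.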
